A study of Mus musculus with 6 samples.

Results

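Chromosome 11 of the mouse held 8033 of the 149724 open chromatin regions found in 6 ATAC-seq peak lists from pro-B cell lines, after peaks that overlapped by at least 1 bp were merged. All regions on the chromosome were kept. The chromosome was chosen by the share of peaks it took in each list, which was larger in the IGCR1-mutated lines, so that difference and every other comparison of the mutated lines with WT on it is a description and carries no test. The label of a richer chromosome held for the share of a list and not for the number of peaks, as the counts per library show.

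The lines are RAG2-deficient pro-B cells from bone marrow of the 129SV strain, grown without treatment. CBE_1 and CBE_2 are 2 IGCR1-/- lines, and the third line, WT, has wild-type IgH alleles. Each line has 2 libraries, made from 200000 cells with 11 PCR cycles. All 3 lines lack RAG2, so none can rearrange its antigen receptor genes. The labels do not say that duplicates came from separate cultures, and both values are given in place of an SD. Replicates are numbered in accession order. With 1 WT line, line and genotype cannot be told apart.

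ATAC-seq uses a transposase that cuts DNA where nucleosomes are sparse, so peaks mark promoters, enhancers and insulator sites in use. A pro-B cell is a bone marrow precursor committed to the B lineage, and its open sites include the genes of the lineage's transcription factors. IGCR1 is a control region of the immunoglobulin heavy chain locus that works through the insulator protein CTCF, and it lies on chromosome 12. Chromosome 11 carries Ikzf1, Ebf1 and Ikzf3, which encode transcription factors of B cell development. ATAC-seq of bulk cells does not tell fewer cells with an open site from a weaker opening in every cell.

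The number of chromosome 11 peaks was lower in CBE_1 than in WT. The CBE_1 lists held 5163 and 5394 peaks on the chromosome, the CBE_2 lists 5793 and 6007, and the WT lists 5912 and 5662. Both CBE_1 libraries lay below both WT libraries, and the CBE_2 and WT counts overlapped. In all, the lists held 72318 and 80242 peaks in CBE_1, 94665 and 97522 in CBE_2, and 112241 and 106056 in WT. Over the whole list CBE_1 thus had 0.699 times the mean number of peaks of WT, and on chromosome 11 it had 0.912 times. CBE_2 had 0.880 times the mean number of WT over the whole list and 1.02 times on chromosome 11.

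As a share of the list, chromosome 11 took 7.14% and 6.72% of the peaks in CBE_1, 6.12% and 6.16% in CBE_2, and 5.27% and 5.34% in WT. All 4 mutated libraries were above both WT libraries, and the 2 CBE_1 libraries were above the 2 CBE_2 libraries. The mean share was 1.31 times that of WT in CBE_1 and 1.16 times in CBE_2. The share moved with the length of the list: the shortest lists, those of CBE_1, had the highest share and the longest, those of WT, the lowest. When each list was cut to its best 72318 peaks, the ratio was 1.17 in CBE_1 and 1.10 in CBE_2, with shares of 7.14% and 6.77% in CBE_1, 6.59% and 6.53% in CBE_2, and 5.91% and 5.99% in WT. The order of the lines was kept at equal length, with a smaller difference.

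**Figure D1:**
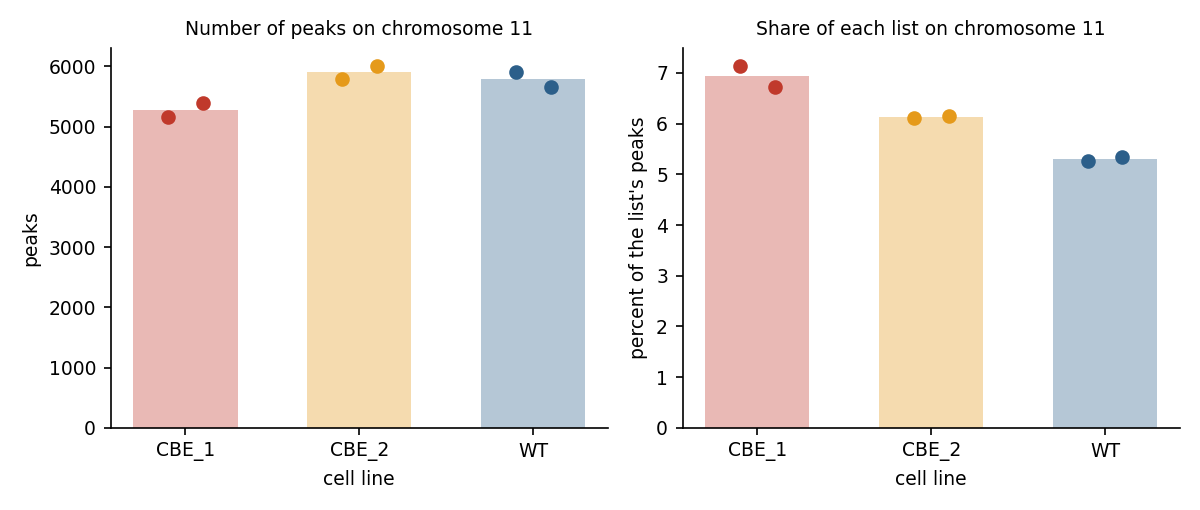
Number of peaks on chromosome 11 (left) and the percent of each list's peaks on chromosome 11 (right) in CBE_1, CBE_2 and WT; each point is a library and each bar the mean of 2. The counts of the CBE_2 and WT libraries overlap, while the shares fall in 3 separate pairs, with 7.14% and 6.72% in CBE_1, 6.12% and 6.16% in CBE_2, and 5.27% and 5.34% in WT.

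Among the 20 chromosomes analysed, chromosome 11 had the highest ratio in CBE_1, where the others ran from 0.729 on chromosome 19 to 1.12 on chromosome 15. In CBE_2 it was second to X, which had 1.21, and the lowest value was 0.590 on chromosome 18. A share above WT in all 4 mutated libraries was also found on chromosomes 2, 7, 8, 9, X and 17. Chromosome 11 is gene-rich, with 13.6 protein-coding genes per Mb in RefSeq's GRCm38.p6 table. Chromosome 7 had as many, 13.6 genes per Mb, and ratios of 1.12 in CBE_1 and 1.08 in CBE_2. Chromosome 19 had 12.1 genes per Mb and ratios of 0.729 in CBE_1 and 0.655 in CBE_2. Gene-rich chromosomes thus stood on both sides of WT.

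**Figure D2:**
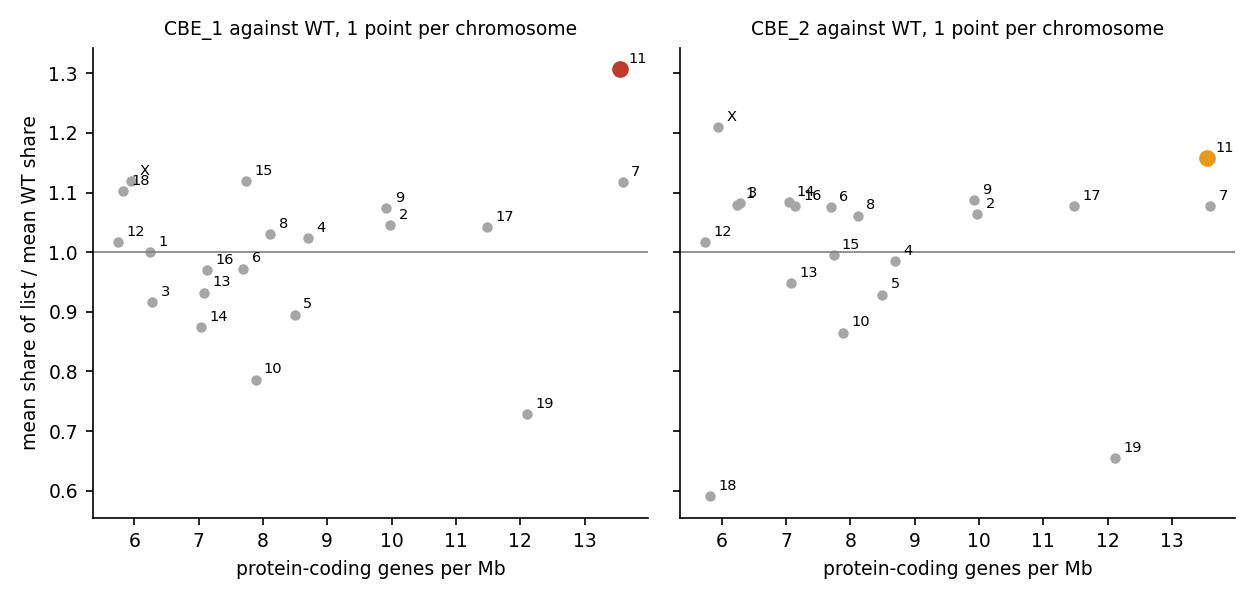
Mean share of the list over the mean WT share, for CBE_1 (left) and CBE_2 (right), against protein-coding genes per Mb (RefSeq GRCm38.p6), with 1 point per chromosome and chromosome 11 in colour. Chromosomes 11 and 7 have the same gene density of 13.6 genes per Mb but ratios of 1.31 and 1.12 in CBE_1, and chromosome 19, with 12.1 genes per Mb, lies at 0.729.

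Peaks of chromosome 11 were wide in every library. Their median width was 497 and 505 bp in CBE_1, 507 and 493 bp in CBE_2, and 497 and 502.5 bp in WT, the highest median of the 20 chromosomes in each of the 6 libraries. The groups overlapped, and the mean of the mutated libraries exceeded that of WT by 0.75 bp. Elsewhere the medians were 460 and 462 bp in CBE_1, 462 and 457 bp in CBE_2, and 442 and 443 bp in WT, so that all 4 mutated libraries had wider peaks than WT. The same difference on single chromosomes ran from 2.63 bp on X to 46.5 bp on chromosome 19, and that of chromosome 11 was the smallest in the whole lists. The value depends on how much of a list is taken: on chromosome 11 it was -104.9 bp with lists of the same length and 65.0 bp in the better 50% of each list. Peaks over 1 kb made up 24.9% to 25.8% of the chromosome 11 peaks in the 4 mutated libraries and 25.4% to 25.5% in the WT libraries. In the rest of the genome they made up 20.3% to 22.1% in the mutated libraries and 19.3% to 19.5% in WT.

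The rank of chromosome 11 peaks within their own list ran against the share. Peaks were ranked within each list by the deposited −log10 p-value and given a percentile, in which 100 is the best peak. The median chromosome 11 peak stood at percentile 52.4 and 53.0 in CBE_1, 54.9 and 53.9 in CBE_2, and 58.8 and 58.3 in WT, and the WT libraries were the highest. Peaks of the other chromosomes had medians of 49.0 to 50.2 over the 6 libraries. Of the chromosome 11 peaks, 11.6% and 11.9% were among the best 10% of the list in CBE_1, 10.7% and 10.5% in CBE_2, and 10.9% and 10.7% in WT. In turn, chromosome 11 took 8.21% and 8.02% of those best peaks in CBE_1, 6.54% and 6.46% in CBE_2, and 5.74% and 5.73% in WT. The order of the lines at the top of the lists was that of the whole lists.

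More of the chromosome 11 regions were common to all libraries than elsewhere. Regions present in all 6 libraries numbered 3322, or 41.4% of the chromosome's regions, against 31.4% of the rest and 31.9% of the genome, and this was the highest share of the 20 chromosomes. Regions found in a single library numbered 1746, or 21.7%, against 28.3% elsewhere. Libraries of the same line shared 71.8% of their combined chromosome 11 regions in CBE_1, 80.4% in CBE_2 and 79.6% in WT. Libraries of different lines shared 58.2% to 67.7%. On the other chromosomes, libraries of the same line shared 68.9% in CBE_1, 74.1% in CBE_2 and 71.4% in WT, and those of different lines 46.2% to 61.4%. The lower agreement within CBE_1 and between lines was thus not particular to chromosome 11.

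Regions present in all 4 mutated libraries and in neither WT library, called mutated-only here, numbered 203, or 2.53% of the chromosome's regions; 1.52% of the regions of the genome had this pattern. The reverse pattern, WT-only, held for 405 regions, or 5.04%, where the genome had 8.68%. CBE_1-only regions, found in the 2 CBE_1 lists alone, numbered 102 (1.27%, genome 0.667%), and CBE_2-only regions 308 (3.83%, genome 3.14%). CBE_1-absent regions, missing from both CBE_1 libraries and present in the other 4, numbered 310 (3.86%, genome 5.05%), and CBE_2-absent regions 71 (0.884%, genome 0.653%). WT-only regions were still more numerous than mutated-only ones on the chromosome, in lists that were longer in WT. The WT-only pattern also needs a peak in only 2 libraries and the mutated-only pattern in 4, so the 2 counts are not alike. At equal list length, mutated-only regions made up 3.98% of the chromosome's regions against 2.89% elsewhere, and WT-only regions 3.54% against 6.35%. The median width was 743 bp for mutated-only, 391 bp for WT-only and 1069.5 bp for the regions in all 6 libraries. On the other chromosomes it was close to this, at 756, 399 and 1052 bp. The other patterns of 2 libraries were narrow too, with 413.5 bp for CBE_1-only and 385 bp for CBE_2-only. A region merged from more lists can be wider by that alone, so these widths do not compare the lines.

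The strongest mutated-only region, chr11:120049969-120052387 in mm9 (2419 bp), had folds over background of 29.3 and 21.9 in CBE_1 and 20.6 and 19.4 in CBE_2, and no peak in either WT list. In each mutated library it stood above the 96th percentile of the list. By the rank in the library where it ranked lowest it was the second of all mutated-only regions in the genome. The next was chr11:60022643-60025035, with folds of 22.3 and 16.8 in the CBE_1 libraries and of 18.4 and 17.5 in those of CBE_2. The regions chr11:30097485-30099312, chr11:16950996-16953814, chr11:61889908-61891309 and chr11:32125962-32127271 followed, with folds of 12.1 to 20.2 in the 4 mutated libraries. These 6 regions are 1310 to 2819 bp wide. The files give them no gene, and the gene table used here is of another build.

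The WT-only regions named here ranked lower within their lists, under a rule of 2 libraries where mutated-only regions need 4. The best, chr11:49577091-49578648, had folds of 10.9 and 11.4 in WT and no peak in the mutated lists, and it was the 71st of its kind in the genome. The region chr11:100442721-100443915 had folds of 8.76 and 10.0 in WT. It lies next to a region present in all libraries, chr11:100444125-100444931, which had folds of 3.02 and 3.44 in CBE_1, 3.80 and 3.87 in CBE_2, and 8.66 and 10.1 in WT. Among the shared regions of the genome the second region stood at percentile 3.89 and 11.4 in CBE_1, 10.4 and 11.3 in CBE_2, and 51.5 and 58.3 in WT. The other WT-only regions named by the same rule, at chr11:72364815-72365570, chr11:76386149-76386861, chr11:59708638-59709456 and chr11:92756421-92757169, had WT folds of 8.66 to 10.0.

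The best CBE_1-only region, chr11:78136120-78136975, had folds of 12.2 and 10.5 in CBE_1 and was the third of its kind in the genome. The others were chr11:80136517-80137235 (10.9 and 9.80), chr11:94334720-94336166 (9.50 and 8.65) and chr11:87408750-87409696 (8.14 and 6.67). The best CBE_2-only region, chr11:10081464-10082066, had folds of 12.0 and 10.4 in CBE_2 and was the 31st of its kind. It was followed by chr11:8948299-8949320 (10.1 and 11.6), chr11:30548935-30549711 (9.56 and 8.91) and chr11:50235247-50236198 (10.2 and 8.80).

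The larger share in the mutated lines was spread along most of the chromosome. The chromosome was divided into 25 bins of 5 Mb, and in 22 of them all 4 mutated libraries had a larger share of their list than both WT libraries; 28.3% of the bins of the genome did so. In 1 bin all 4 were below WT, which held for 26.1% of the bins of the genome. The 2 remaining bins were mixed. At equal list length, 16 bins were above WT in all 4 mutated libraries. The genome shares here are of the whole lists, and none is given at equal length. CBE_1 was above WT in 22 bins (genome 35.8%) and below in 1 (genome 47.1%). CBE_2 was above WT in 24 bins (genome 49.5%) and below in 1 (genome 34.7%). These comparisons share the WT libraries. The median log2 ratio to WT over the 25 bins was 0.25 in CBE_1 and 0.22 in CBE_2. Over the 508 bins of the other chromosomes it was -0.08 in CBE_1 and 0.04 in CBE_2. At equal list length more bins of chromosome 11 had a negative log2 ratio than the bin at 35 to 40 Mb. In CBE_1 these lay at 10 to 15, 25 to 30, 30 to 35, 45 to 50 and 90 to 95 Mb. In CBE_2 they lay at 45 to 50 and 90 to 95 Mb.

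The log2 ratio varied more between bins in CBE_1 than in CBE_2, on this chromosome as elsewhere. Its SD over the 25 bins was 0.35 in CBE_1 and 0.22 in CBE_2, and 0.19 in CBE_1 and 0.09 in CBE_2 without the sparse bin at 35 to 40 Mb. Over the bins of the other chromosomes it was 0.56 in CBE_1 and 0.36 in CBE_2. CBE_1 libraries were both above both CBE_2 libraries in 13 bins, where the genome had 29.1%, and below them in 4, where the genome had 52.0%. When each library's chromosome 11 peaks were taken as the whole, which removes a shift of the entire chromosome, 2 of the 25 bins remained above WT in all 4 mutated libraries. The bin shares then sum to the same total in every library, so bins cannot all lie above WT. A lower count is thus in part built in and does not show by itself that the whole chromosome shifted.

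In bins of 1 Mb, 59 of 105 were above WT in all 4 mutated libraries, where the genome had 24.0%, and 8 were below, where the genome had 25.6%. With lists of the same length 40 were above, a setting for which no genome share is given. CBE_1 was above WT in 69 of these bins (genome 33.0%) and below in 16 (genome 45.8%), and CBE_2 above in 75 (genome 41.7%) and below in 9 (genome 33.7%). In number of peaks, CBE_1 exceeded WT in 13 bins (genome 3.81%) and fell short in 60 (genome 82.6%), while CBE_2 exceeded it in 34 (genome 18.9%) and fell short in 26 (genome 50.5%). Both CBE_1 shares were above both CBE_2 shares in 49 bins (genome 26.6%) and below them in 32 (genome 48.0%). The longest run of adjacent 1 Mb bins above WT spanned 7 bins, at 74 to 81 Mb. Bins with fewer than 20 peaks over the 6 lists were left out.

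**Figure D3:**
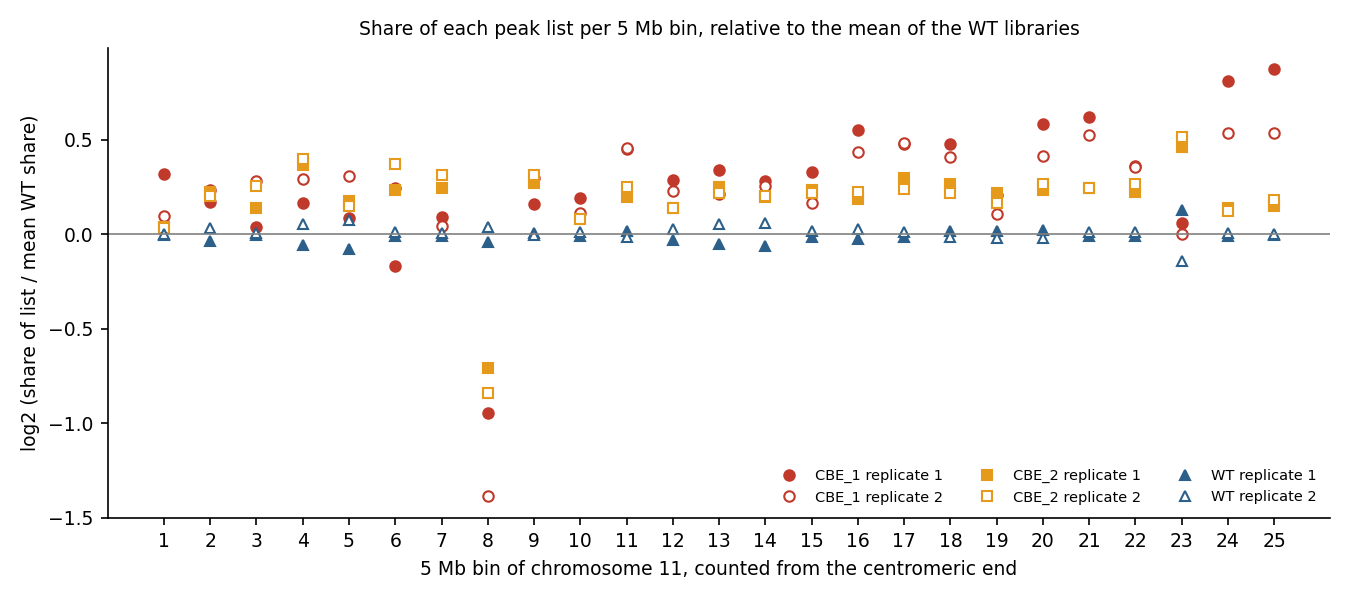
Share of each list per 5 Mb bin of chromosome 11, as log2 of its ratio to the mean WT share, for each CBE_1, CBE_2 and WT library; bins are counted from the centromeric end and the last one holds 1.71 Mb. CBE_1 and CBE_2 points lie above both WT points in 22 of 25 bins, bin 8 lies below, and the CBE_1 points are highest in bins 24 and 25.

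In CBE_1 the largest ratios lay at the end of the chromosome, and in CBE_2 they did not. In the bin at 115 to 120 Mb the lists held 778 and 713 peaks in CBE_1, 639 and 652 in CBE_2, and 685 and 654 in WT. Both CBE_1 libraries were above WT in number, and both CBE_2 libraries were below it. As a share of the list the ratio to WT was 1.60 in CBE_1 and 1.10 in CBE_2. In the last bin, from 120 Mb, there were 207 and 182 peaks in CBE_1, 164 and 173 in CBE_2, and 175 and 166 in WT, with ratios of 1.64 in CBE_1 and 1.12 in CBE_2. These were the only 2 bins of the chromosome in which both CBE_1 lists held more peaks than both WT lists; 1.69% of the bins of the genome did so. CBE_1 held fewer peaks than WT in 17 bins of the chromosome, where the genome had 93.6%. CBE_2 held more peaks in 9 bins (genome 12.6%) and fewer in 5 (genome 61.5%).

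These 2 bins held 28.8% of the 1.63 percentage points by which the CBE_1 share exceeded the WT share, and 9.25% of the 0.837 points of CBE_2. In WT they held 14.5% of the chromosome's share. Without them, the ratio to WT was 1.26 in CBE_1 and 1.17 in CBE_2. In the better 50% of each list, the log2 ratio of the mutated libraries together was 0.22 at 115 to 120 Mb and 0.24 from 120 Mb, against 0.43 and 0.47 in the whole lists, and it was higher at 110 to 115 Mb (0.55) and at 40 to 45 Mb (0.33). The CBE_1 peaks in the last 2 bins ranked low: in the bin at 115 to 120 Mb the median percentile was 40.0 and 46.3 in CBE_1, 51.1 and 52.7 in CBE_2, and 54.4 and 56.3 in WT. Regions found in a single library numbered 157 of 853 and 87 of 782 over both bins in CBE_1. They numbered 29 of 703 and 44 of 716 in CBE_2, and 50 of 766 and 35 of 724 in WT. Over the whole chromosome such regions made up 8.01% and 5.67% in CBE_1, 4.37% and 5.05% in CBE_2, and 6.74% and 4.10% in WT. On the other chromosomes it was 5.60% and 5.12% in CBE_1, 6.73% and 7.37% in CBE_2, and 13.2% and 9.11% in WT. In the last 2 bins the CBE_1 duplicates also differed more from each other than those of the other lines.

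The bin at 100 to 105 Mb had the next highest ratio, 1.49 in CBE_1 and 1.18 in CBE_2, from 402 and 418 peaks in CBE_1, 405 and 417 in CBE_2, and 403 and 386 in WT. The peak numbers of the lines were close, and CBE_1 replicate 1 lay between the WT libraries. The bin at 110 to 115 Mb departed from the rest in the opposite sense: it held 109 and 116 peaks in CBE_1, 188 and 201 in CBE_2, and 177 and 139 in WT, with ratios of 1.02 in CBE_1 and 1.40 in CBE_2. In it 40 regions were CBE_2-only, 13.1% of its regions, beside 3.83% over the chromosome.

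The only bin below WT lay at 35 to 40 Mb. It held 11 and 9 peaks in CBE_1, 17 and 16 in CBE_2, and 32 and 32 in WT, with ratios of 0.450 in CBE_1 and 0.586 in CBE_2. It was also the sparsest bin, with 37 regions, of which 14, or 37.8%, were WT-only, beside 5.04% over the chromosome, and 4 were in all libraries. The next lowest ratios, of both lines together, were 1.09 at 45 to 50 Mb and 1.09 at 0 to 5 Mb.

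Single megabases varied more. At 112 to 113 Mb there were 10 and 7 peaks in CBE_1, 19 and 18 in CBE_2, and 3 and 2 in WT, a log2 ratio of 2.74 for the mutated libraries together. At 110 to 111 Mb there were 14 and 16 in CBE_1, 33 and 33 in CBE_2, and 15 and 14 in WT (1.02). At 82 to 83 Mb there were 65 and 75 in CBE_1, 74 and 72 in CBE_2, and 53 and 53 in WT (0.79). The first and the last of these had more peaks in all 4 mutated libraries than in WT.

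The lowest megabase, 36 to 37 Mb, held 1 and 0 peaks in CBE_1, 2 and 3 in CBE_2, and 8 and 8 in WT. At 92 to 93 Mb there were 0 and 2 in CBE_1, 7 and 5 in CBE_2, and 17 and 16 in WT. At 111 to 112 Mb there were 7 and 11 in CBE_1, 20 and 19 in CBE_2, and 43 and 31 in WT, so that segments on both sides of WT adjoined between 110 and 113 Mb.

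In CBE_1 the ratio to WT was higher in dense segments, and in CBE_2 it was about level. The files carry no annotation, and the number of regions present in all 6 libraries per 5 Mb bin stood in for gene density. Such a region must be in the short CBE_1 lists too, so a bin that lost CBE_1 peaks counts as sparser by that loss. In CBE_1 the share was 1.18 times that of WT in the 8 sparsest bins of the chromosome and 1.42 times in the 8 densest. In CBE_2 it was 1.20 times in the sparsest and 1.16 times in the densest. For the mutated libraries together the log2 difference between dense and sparse bins was 0.11, and 0.036 without CBE_1 replicate 1 and 0.026 in the better 50% of each list. Over the 25 bins, Spearman's rho between the density and the log2 ratio to WT was 0.76 in CBE_1 and -0.06 in CBE_2; the bins share libraries, so rho is given without a test. With a density counted from regions in both WT libraries, whatever the mutated lists held, the sparsest and densest bins gave the same ratios, and rho was 0.75 in CBE_1 and -0.04 in CBE_2. Counted from all regions, rho was 0.72 in CBE_1 and 0.08 in CBE_2. With that density the CBE_1 ratio was 1.11 in the sparsest bins and 1.42 in the densest. The CBE_2 ratio was 1.12 in the sparsest and 1.16 in the densest, so its small difference turned the other way. The WT lists enter these measures and the ratio alike. The next ratios are at equal list length, with density from the regions in all 6 libraries. They were 1.12 in the sparsest bins and 1.26 in the densest in CBE_1, and 1.16 in the sparsest and 1.09 in the densest in CBE_2.

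The dense bins of other chromosomes also had a median above WT, to a lesser degree. When all bins of the genome were split by density in 3 classes, the 14 dense bins of chromosome 11 (104 shared regions or more) had a median log2 ratio of 0.40 in CBE_1 and 0.22 in CBE_2, and the 164 dense bins elsewhere had 0.16 in CBE_1 and 0.10 in CBE_2. In the middle class the median was 0.21 in CBE_1 and 0.23 in CBE_2 over 7 bins of chromosome 11, and -0.09 in CBE_1 and 0.03 in CBE_2 over 170 elsewhere. In the sparse class (53 shared regions or fewer) it was 0.11 in CBE_1 and 0.25 in CBE_2 over 4 bins of chromosome 11, and -0.46 in CBE_1 and -0.05 in CBE_2 over 174 elsewhere. Chromosome 11 thus had the higher median in each class and in both lines. All 14 dense bins of chromosome 11 were above WT in the 4 mutated libraries, and 49.4% of the dense bins elsewhere. At equal list length the sparse class of chromosome 11 had a median of -0.11 in CBE_1, below WT, and 0.14 in CBE_2. Elsewhere the sparse class had -0.43 in CBE_1 and -0.09 in CBE_2. The dense class then had 0.22 in CBE_1 and 0.14 in CBE_2 on chromosome 11, and 0.08 in CBE_1 and 0.05 in CBE_2 elsewhere.

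**Figure D4:**
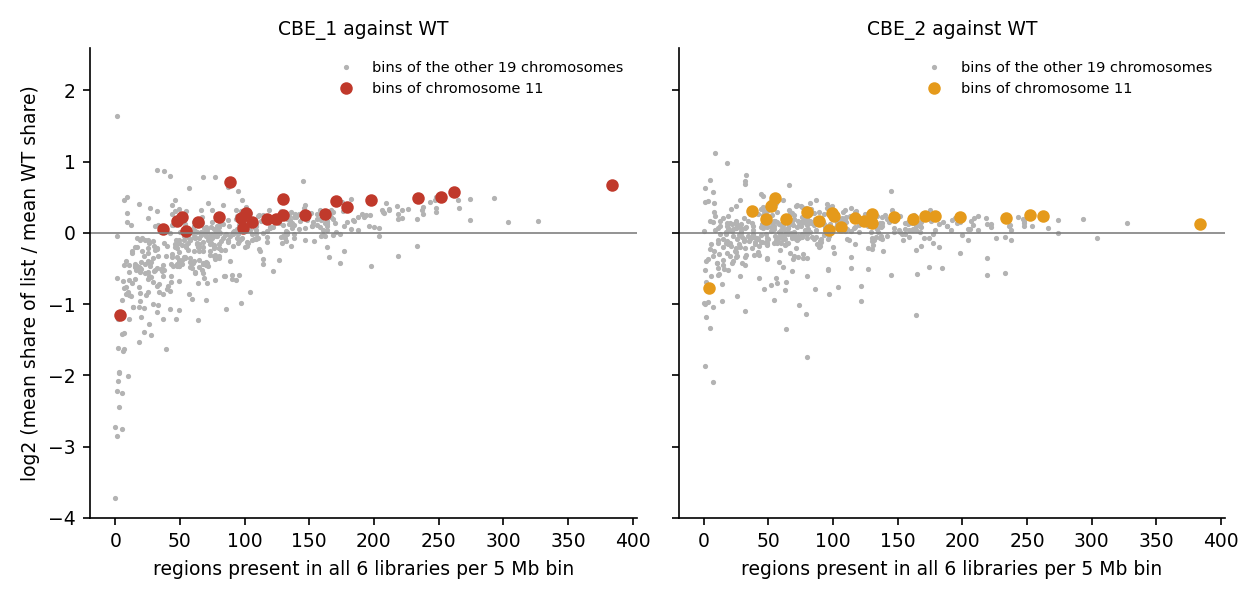
Log2 ratio of the share of the list to WT per 5 Mb bin, in CBE_1 (left) and CBE_2 (right), against the number of regions present in all 6 libraries in the bin; coloured points are the 25 bins of chromosome 11 and grey points the 508 bins of the other chromosomes. In CBE_1 the chromosome 11 points climb with density (rho 0.76), and in CBE_2 they stay level (rho -0.06) at a median of 0.22.

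The 3322 regions present in all libraries allow the same set of sites to be ranked in every library. Within each library the 47767 such regions of the genome were ranked by the deposited fold and given a percentile. Statements of higher or lower at a shared region rest on these percentiles, and folds are printed as the authors' values for each peak. The median chromosome 11 region stood at percentile 55.1 and 53.4 in CBE_1, 50.9 and 51.2 in CBE_2, and 48.5 and 49.0 in WT. All 4 mutated libraries were above WT, with CBE_1 highest. The median difference from WT was 6.08 points in CBE_1, with quartiles of -0.72 and 12.8, and 2.00 points in CBE_2, with quartiles of -2.27 and 6.82. In the rest of the genome the medians were 0.05 points in CBE_1 and -0.08 in CBE_2.

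All 4 mutated libraries ranked higher than both WT libraries at 1105 of the shared regions, or 33.3%, where the genome had 20.3%. At 308, or 9.27%, all 4 ranked lower, where the genome had 20.1%. Chromosome 9 had the next highest share of higher regions, 25.1%. Taken alone, CBE_1 ranked above WT at 58.8% of the shared regions (genome 36.9%) and below at 16.6% (genome 33.6%). CBE_2 ranked above WT at 43.1% (genome 33.2%) and below at 20.7% (genome 33.2%). CBE_1 ranked above CBE_2 at 49.1% (genome 34.1%) and below it at 19.4% (genome 31.5%). Higher regions outnumbered lower ones in 23 of the 24 bins of 5 Mb with at least 20 shared regions. The same count is not given for other chromosomes. The share of higher regions ran from 16.7% at 10 to 15 Mb, the bin that holds Ikzf1, to 47.3% at 110 to 115 Mb.

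**Figure D5:**
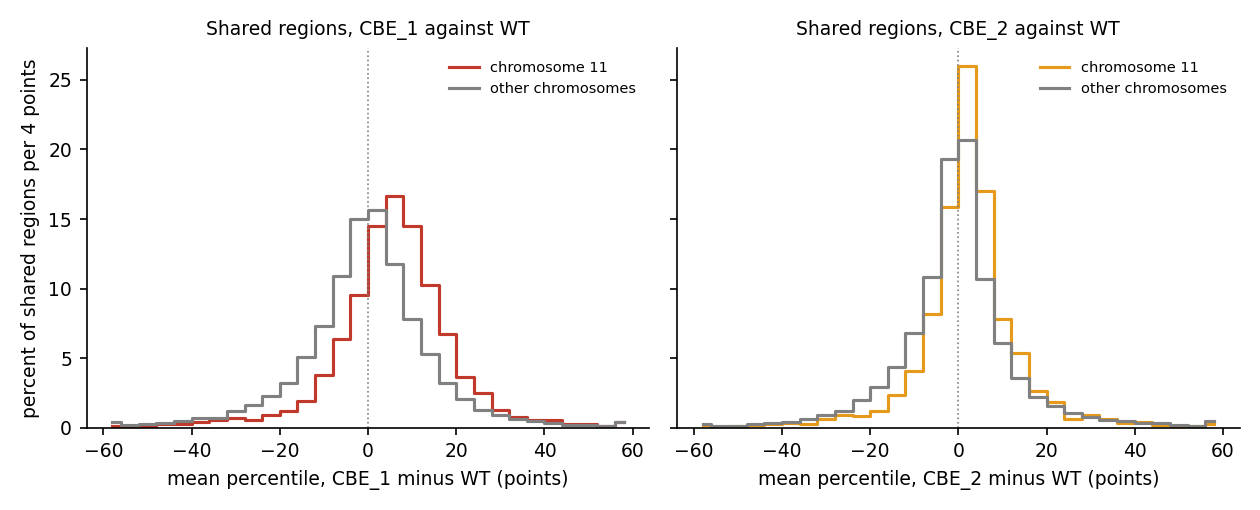
Distribution of the difference in mean percentile, CBE_1 minus WT (left) and CBE_2 minus WT (right), over the 3322 shared regions of chromosome 11 (coloured) and the 44445 of the other chromosomes (grey), in steps of 4 points with the outermost steps holding all values beyond them. The centre of the chromosome 11 curves lies to the right, at a median of 6.08 points in CBE_1 and 2.00 in CBE_2, while the grey curves are centred near 0. In CBE_2 the right tail lies on both sides of the grey curve. It holds 0.60% against 1.08% at 24 to 28 points, and 0.93% against 0.81% at 28 to 32.

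The largest gaps at shared regions were of the order of the whole scale. The region chr11:108778597-108780557 (1961 bp) stood at percentile 88.8 and 93.0 in CBE_1, 94.9 and 97.0 in CBE_2, and 5.50 and 8.62 in WT. Its folds were 24.1 and 21.3 in CBE_1, 22.1 and 21.9 in CBE_2, and 3.46 and 3.74 in WT. The region chr11:109471040-109474149, in the same 5 Mb bin, had folds of 27.7 and 22.0 in CBE_1, 24.2 and 21.4 in CBE_2, and 4.44 and 4.72 in WT. The second stood at percentile 93.3 and 94.3 in CBE_1, 97.4 and 96.3 in CBE_2, and 15.5 and 19.5 in WT. In both, the mutated libraries ranked near the top of the shared regions and the WT libraries near the bottom.

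The region chr11:69693921-69695469 had folds of 16.3 and 14.3 in CBE_1, 12.4 and 13.0 in CBE_2, and 3.68 and 3.63 in WT. The regions chr11:106535730-106537362 and chr11:23745698-23747448 had folds of 9.07 to 11.9 in the 4 mutated libraries and 2.49 to 3.68 in WT. These 3 regions ranked between percentiles 60.2 and 77.2 in the mutated libraries and between 0.17 and 7.52 in WT. Gaps the other way were smaller. The region chr11:116962413-116963585 had folds of 3.02 and 3.02 in CBE_1, 4.78 and 5.37 in CBE_2, and 14.5 and 14.4 in WT. The regions chr11:119880063-119881772, chr11:98253817-98255486 and chr11:119912301-119913930 had folds of 2.40 to 5.03 in the mutated libraries and 8.68 to 11.8 in WT. They ranked between percentiles 0.16 and 24.8 in the mutated libraries and between 51.7 and 64.9 in WT.

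The 3 widest regions of all libraries lay side by side near the centromeric end, at chr11:3028776-3049023, chr11:3052022-3074826 and chr11:3080554-3100302. They are 20248, 22805 and 19749 bp wide. The last had folds of 40.1 and 29.7 in CBE_1, 33.7 and 31.1 in CBE_2, and 33.0 and 33.0 in WT, between percentiles 99.98 and 99.999 of each list. All 3 were among the strong peaks of all 3 lines. No filter for repeats or mappability was applied to the lists here, so these regions may not be single open sites.

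Loci of known function were read in windows set from general knowledge of mm9. Their borders are approximate, and a window may take in neighbouring genes. The B lineage list held 6 loci: Ikzf1, Ebf1 and Ikzf3, Cd79b, which encodes a chain of the B cell receptor, Rel, an NF-κB subunit, and the Stat5a/Stat5b pair, which acts below the IL-7 receptor. Each locus had a peak at or above percentile 82.0 in every library, so the labelled lineage's loci were open. This bar does not set the lineage apart. Of the windows of other cell types described below, Tcf7 (lowest 95.6), the type I keratin cluster (88.4) and Gfap (83.0) also passed it in every library. The Hba (29.8) and Myh (49.0) clusters did not. The list held 65 shared regions, of which 32 ranked above WT in each of the 4 mutated libraries and 5 ranked below. That is 49.2% higher and 7.69% lower, beside 33.3% and 9.27% over the shared regions of the chromosome.

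At Ebf1, needed for commitment to the B lineage, 9 of 18 shared regions ranked higher and none lower. Its best region, chr11:44429209-44432164, had folds of 29.6 and 20.5 in CBE_1, 17.3 and 17.3 in CBE_2, and 17.6 and 17.9 in WT. Its percentiles among the shared regions were 95.3 and 91.6 in CBE_1, 84.2 and 87.4 in CBE_2, and 84.8 and 85.1 in WT, so that CBE_1 was above WT and CBE_2 overlapped it. At Stat5a/Stat5b 10 of 13 ranked higher and 1 lower, with folds at chr11:100675613-100676491 of 13.6 and 10.8 in CBE_1, 10.2 and 9.88 in CBE_2, and 7.47 and 7.47 in WT. That region stood at percentile 72.6 and 67.8 in CBE_1, 60.7 and 60.8 in CBE_2, and 44.3 and 44.5 in WT. It was not the best region of the window, which was chr11:100720651-100723619. The best peak of the window stood at list percentile 92.8 and 91.1 in CBE_1, 93.2 and 93.6 in CBE_2, and 92.4 and 91.4 in WT. There CBE_1 and WT overlapped, and both CBE_2 values were above WT.

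Cd79b had 5 of 8 regions higher, Ikzf3 4 of 9 and Rel 2 of 3, with none lower at these loci. At Ikzf1, which encodes Ikaros, 2 of 14 shared regions were above WT in each mutated library and 4 below, while the median difference over the 14 was 2.96 points higher in the mutated libraries. The calls and the median thus differ in sign there. Its region chr11:11658810-11659540 had folds of 3.62 and 4.79 in CBE_1, 8.58 and 8.70 in CBE_2, and 10.1 and 10.5 in WT, and percentiles of 15.4 and 32.3 in CBE_1, 53.7 and 55.5 in CBE_2, and 58.2 and 60.2 in WT. At the region chr11:11588843-11592247 the lines overlapped, with percentiles of 73.2 and 71.5 in CBE_1, 73.6 and 79.4 in CBE_2, and 69.2 and 77.7 in WT.

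Of the loci of other cell types, the alpha-globin cluster Hba, used in red cell precursors, had 1 shared region, chr11:32171150-32171742. Its folds were 3.47 and 4.69 in CBE_1, 5.76 and 4.94 in CBE_2, and 10.6 and 10.3 in WT. Its percentiles were 12.4 and 31.0 in CBE_1, 32.7 and 24.5 in CBE_2, and 60.4 and 59.2 in WT, so it ranked lower in all 4 mutated libraries. The skeletal myosin cluster Myh, used in muscle, had best folds of 4.52 and 4.90 in CBE_1, 8.83 and 7.52 in CBE_2, and 7.14 and 7.03 in WT. None of its 4 shared regions was higher or lower in all 4 mutated libraries.

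The windows of Tcf7, a T cell factor, of Gfap, an astrocyte gene, and of the type I keratin cluster held strong peaks in all libraries, with best folds of 11.5 to 29.1. Over the 5 loci of this list, 9 of 25 shared regions ranked higher and 3 lower. That is 36.0% higher and 12.0% lower, beside 33.3% and 9.27% over the shared regions of the chromosome. The part of other cell types in the results was not tested. Of the broadly used loci, Trp53, which encodes p53, had 1 of 3 shared regions higher and Actg1, a cytoplasmic actin, 1 of 3 higher and 1 lower.

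The Hoxb cluster, developmental regulators that are also used in blood progenitors, had the most peaks in CBE_2. Its window held 11 and 11 peaks in CBE_1, 25 and 23 in CBE_2, and 15 and 13 in WT. Of its 28 regions, 4 were CBE_2-only and 2 WT-only; over the chromosome these patterns made up 3.83% and 5.04% of regions. None of its 6 shared regions was higher or lower in all 4 mutated libraries. At Irf1, an interferon response factor, 1 of 4 shared regions was higher and 1 lower.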

How the data were processed

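ATAC-seq was done on 6 libraries, and the authors deposited 1 narrowPeak list per library. The submitters' processing notes name Trimmomatic, Bowtie2, SAMtools, Picard and the mm9 build, without versions. The peak caller, its settings and any shift of reads were not given in the sources used here. The lists hold the authors' score, fold (a ratio over background), −log10 p-value and −log10 q-value per peak, and another column with the deposited summit position. Read numbers are not given, so the depth is unknown and no interval or floor is stated. The p-values and folds served to rank peaks within a list, and folds are also printed as the authors' values. Ranks from lists of different lengths show no change of a site by themselves.

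Peaks were merged at 1 bp overlap with Python 3.11.15 and pandas 2.3.3, and binned by their midpoints. The merging, patterns, bins and ranks were tested on simulated lists. Named regions are the best-ranked of each pattern and the shared regions with the largest percentile gaps. The chromosome, members, loci and lists were chosen with earlier results of these data known. No test was run, since the chromosome was chosen on the same contrast. No genome of the mm9 build was used here, so no region sequence is shown. Alternatives were a shorter list, covered bases, another overlap, rank or denominator, and leaving out libraries or lines.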

Additional observations from a re-analysis of the deposited data

How the results depend on the processing

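The share of chromosome 11 in the mutated lists over WT, 1.23 as reported, was 1.15 in the better 50% of each list, 1.14 with lists of the same length and 1.20 by covered bases. Among the values of single bins and single regions, each counted once per alternative, 81 moved, 2 reversed and 200 stayed the same. Among those of the main results, 31 moved, 5 reversed and 74 stayed the same. In the better 50% of each list there were 114 mutated-only regions, 2.78% of the chromosome's regions against 2.01% elsewhere. The median percentile difference was then 5.29 points and the width difference 65.0 bp. The log2 difference between dense and sparse bins was 0.026 (0.11 as reported). Bin log2 ratios were 0.056 at 105 to 110 Mb (0.30 as reported) and 0.55 at 110 to 115 Mb (0.28). At equal list length WT-only regions numbered 233, or 3.54% against 6.35% elsewhere. The width difference was then -104.9 bp and the dense to sparse difference 0.043. The log2 ratios of the bins at 45 to 50 and 90 to 95 Mb turned to -0.042 and -0.091. Requiring a peak to cover 50% of a region left 127 mutated-only regions out of the same 8033, with no share elsewhere given for this rule. As a share of chromosome 11 peaks, 2 of the 5 Mb bins and 14 of the 1 Mb bins were above WT, a fall that this denominator in part builds in. The dense to sparse difference was 0.21 by all regions and 0.28 in 1 Mb bins; counting density in both WT libraries, an alternative chosen after seeing the data, left it at 0.11.

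Leaving out a line was also chosen after seeing the data. It loosens the calls of above, below, mutated-only and WT-only, which need every library. Larger values of these are thus at least in part built in. No share elsewhere is given for these settings, so they do not show what is particular to chromosome 11. Without CBE_1 the share ratio was 1.16, 20.1% of shared regions were below WT, the percentile difference was 2.25 points, 631 regions were mutated-only, and the dense to sparse difference reversed to -0.058. Without CBE_2 these were 1.31, 16.9%, 5.78 points, 374 regions and 0.26, with 57.6% above WT and 865 WT-only regions. The excess of dense bins thus rests on CBE_1.

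Leaving out 1 library at a time gave a share ratio of 1.19 to 1.26, 22 to 23 and 61 to 66 bins above WT at 5 and 1 Mb, 225 to 272 mutated-only regions, 35.4% to 42.7% of shared regions above and 10.5% to 13.4% below WT, a percentile difference of 3.27 to 4.75 points, a width difference of -2.0 to 3.5 bp and a dense to sparse difference of 0.036 (without CBE_1 replicate 1) to 0.17. WT-only regions ran from 447 to 794, with 644 without WT replicate 1 and 794 without WT replicate 2. The calls of above, below, mutated-only and WT-only need agreement of every library of a group. Leaving 1 out loosens them, so their larger values are at least in part built in and do not measure stability. No share elsewhere is given with a library left out. The cause of the other changes was not tested. Ranking shared regions by −log10 p-value gave identical values and so checks nothing. No paired analysis was possible because the labels give no replicate numbers and no test was run.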
